A study of Mus musculus with 47 samples.

Results

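Tdg was knocked down with a small interfering RNA (siTdg) in mouse embryonic stem cells (ESCs) of the line E14Tg2A, and RNA was sequenced at 48 h beside cells given a control siRNA (siC). The members described here are the 12217 genes, of 24507 in the 48 h table, with a mean of at least 0.5 RPKM (reads scaled to gene length and library depth) over the 4 libraries of that time, 2 of siC and 2 of siTdg. That mean was taken over both groups together. The members with the lowest means, AI429214 and Sept4, both stood at 0.500 RPKM, and the first genes outside, Nat8f6 and E230016K23Rik, stood at 0.498. All cells of both groups were grown without serum in N2B27 medium with LIF and the inhibitors PD0325901 (of MEK) and CHIR99021 (of GSK3), a mixture that holds ESCs in a naive state. Ribosomal RNA was removed and stranded total RNA libraries were prepared. The sources used here give neither the siRNA sequences nor the number of transfections. Whether replicates 1 and 2 were independent cultures is not stated in the labels, so the spread behind every p-value below is possibly technical only. Where siTdg and siC libraries of the same number are paired, that spread is how far the 2 pairs disagree, with information shared between genes. Fits without pairing use the spread between libraries of a group. Within this series of 47 samples, 4 further libraries of the same treatments at 96 h and 8 of ESCs labelled G1 or G2M, for phases of the cell cycle, share no sample with the 48 h comparison and give the same genes in other libraries. How the cells of each phase were separated, and how long after the siRNA they were taken, is not stated in the labels. The siC and siTdg libraries of the phases were deposited as separate RPKM sets. Every siTdg change within a phase thus also holds any difference in scale between those sets.

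Thymine DNA glycosylase (TDG) starts base excision repair by cutting the damaged base from G·T and G·U mispairs, which arise when 5-methylcytosine or cytosine loses its amino group. It also removes 5-formylcytosine and 5-carboxylcytosine, the bases that TET enzymes make from 5-methylcytosine, so that unmodified cytosine can be put back, and it is known as a binding partner of transcription factors and coactivators. The series as a whole asks what TDG does for p53, the transcription factor of the DNA damage response, across the cell cycle.

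Recovered reads assigned to genes numbered 27781941 to 36551129 per library. All 8 ESC markers were expressed in every library, Pou5f1 at 761 and 941 RPKM in siC and 759 and 1071 in siTdg, while 1 of 6 endoderm markers, 1 of 4 trophoblast markers, 2 of 4 neural markers and 3 of 4 mesendoderm markers had a mean of 0.5 RPKM or more. Their summed levels were 1.42 to 2.16 RPKM for endoderm, 0.497 to 0.961 for trophoblast and 10.02 to 11.6 for mesendoderm, with Gsc, Eomes and T the higher ones, and neural markers are given below. Summed levels of 5 fibroblast markers were 0.600 and 3.72 RPKM in siC and 0.670 and 4.02 in siTdg, so that replicate 2 was high in both groups. Libraries fell by replicate number more than by siRNA: over all genes, the deviations of the siC and siTdg libraries from their group means correlated between same-numbered libraries at r = 0.852 (across genes, which are not independent replicates). Each siTdg library was therefore compared with the siC library of its number, as the choice of this comparison sets.

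Tdg itself was lower in both siTdg libraries. Its level was 45.98 and 43.4 RPKM in siC and 7.34 and 13.2 in siTdg, which leaves 15.96% of the siC level in replicate 1 and 30.5% in replicate 2. On the log2(RPKM + 0.5) scale, which is used for every change below and understates those of low genes, Tdg changed by -2.12 (SE 0.12, limma with the replicate number as a block, adjusted p = 3.14e-12, lower in 2 of 2 pairs), the largest fall of all genes tested. The phase libraries had 17.6% and 12.6% of the siC level left in G1 and 20.004% and 13.7% in G2M. At 96 h 78.98% and 87.7% were left (35.8 and 46.01 RPKM in siC, 28.2 and 40.3 in siTdg), and the difference between 96 h and 48 h, 1.86 (SE 0.20), had an adjusted p of 0.00177. The 48 h libraries thus hold the knock-down, and in replicate 2 more Tdg RNA was left than in replicate 1.

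Of the 12217 genes 604 (4.94%) were called at an adjusted p under 0.05, 203 higher in siTdg (1.66%) and 401 lower (3.28%). Most changes were small, with a median size of 0.42 among the raised and 0.36 among the lowered genes, and 6 and 10 genes respectively moved by 1 log2 or more. Both pairs went the same way for 201 of 203 raised and 400 of 401 lowered genes, a property the paired test favours. In 121 of the raised (59.6%) and 219 of the lowered (54.6%) genes the siC and siTdg libraries did not overlap, against 18.8% of all genes. The same values made the calls, so a higher share among called genes is no separate evidence. The calls rest on the pairing and on a spread shared between genes: the replicate block leaves 1 residual degree of freedom, the same model without the block called 0 genes (88 at an unadjusted p under 0.05, against 2257 with it), and without the mean-dependent prior 18 were called. With limma-voom on the recovered reads and the same block, 707 genes were called (5.79%), 187 higher and 520 lower, and 488 of these were among the 604 in the same direction, 80.8% of the one set and 69.0% of the other.

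**Figure D1:**
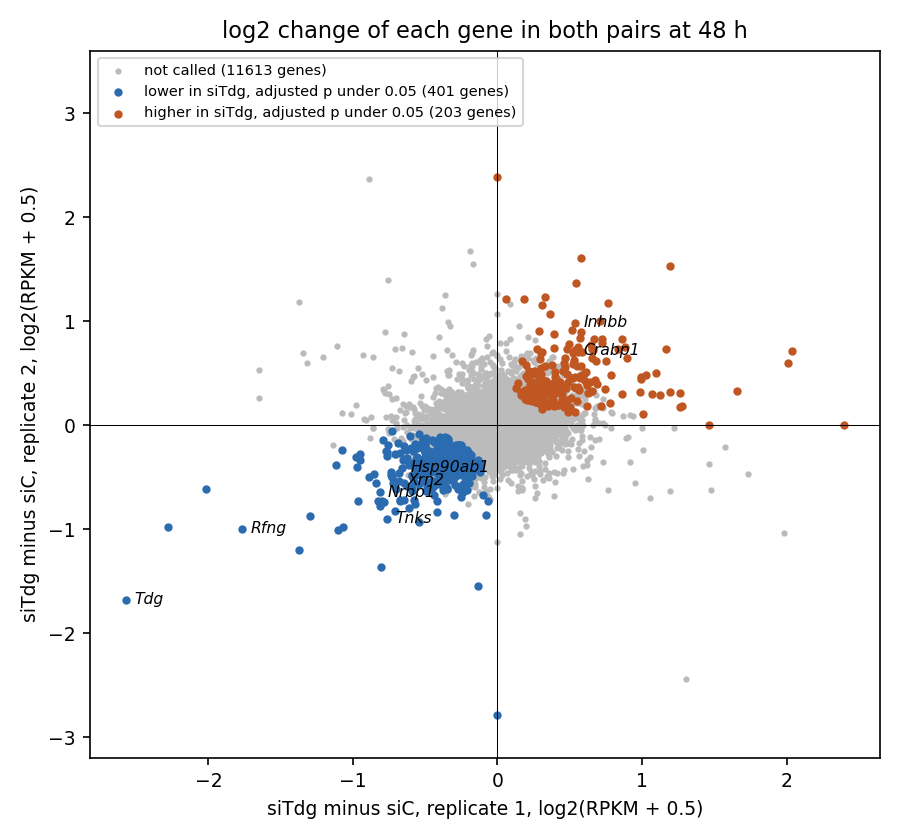
Change of each of 12217 genes in siTdg against siC at 48 h, on the log2(RPKM + 0.5) scale, in replicate 1 (x axis) and in replicate 2 (y axis), each point 1 gene. Genes called higher (203, orange) and lower (401, blue) lie in the quadrants where both replicates moved the same way, apart from 2 raised genes and 1 lowered gene with no such agreement, and Tdg lies farthest to the lower left.

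The lowered genes with many reads had many different roles. Beside Tdg, those with the largest falls among genes with at least 100 reads that limma and limma-voom both called (12 in each direction, a selection made after values were seen) included Rfng, Mylip, Tnks and Nrbp1. The promoters of Tdg, Rfng and Nrbp1 are shown with those of Xrn2 and of the raised genes Crabp1 and Inhbb, since the bases TDG removes lie mainly at CG dinucleotides. Each is the 250 bases before the RefSeq gene start on the gene's strand (build GRCm38.p6, while the submitters' notes name mm9), 5′ to 3′, with CG in capitals.
Tdg: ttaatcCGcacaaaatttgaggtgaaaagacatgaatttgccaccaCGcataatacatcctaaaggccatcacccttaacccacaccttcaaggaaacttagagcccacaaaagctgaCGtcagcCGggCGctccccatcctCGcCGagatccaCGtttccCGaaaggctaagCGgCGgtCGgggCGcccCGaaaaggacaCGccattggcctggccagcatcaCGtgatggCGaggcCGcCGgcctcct
Rfng: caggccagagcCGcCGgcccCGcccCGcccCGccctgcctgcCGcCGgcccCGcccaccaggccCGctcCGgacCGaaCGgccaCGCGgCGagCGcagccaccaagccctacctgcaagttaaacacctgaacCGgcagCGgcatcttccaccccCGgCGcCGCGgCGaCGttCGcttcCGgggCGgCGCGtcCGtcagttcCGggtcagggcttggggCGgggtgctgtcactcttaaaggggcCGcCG
Nrbp1: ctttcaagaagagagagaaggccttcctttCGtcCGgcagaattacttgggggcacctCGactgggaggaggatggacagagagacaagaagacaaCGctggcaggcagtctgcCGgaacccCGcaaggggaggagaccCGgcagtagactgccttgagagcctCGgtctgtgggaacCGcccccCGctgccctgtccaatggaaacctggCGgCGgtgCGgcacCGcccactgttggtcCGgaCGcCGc
Xrn2: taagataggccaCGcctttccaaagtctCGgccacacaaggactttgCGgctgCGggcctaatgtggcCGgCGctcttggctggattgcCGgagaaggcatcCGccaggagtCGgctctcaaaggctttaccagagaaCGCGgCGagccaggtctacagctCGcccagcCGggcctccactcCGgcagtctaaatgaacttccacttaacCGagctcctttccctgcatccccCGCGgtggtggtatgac
Crabp1: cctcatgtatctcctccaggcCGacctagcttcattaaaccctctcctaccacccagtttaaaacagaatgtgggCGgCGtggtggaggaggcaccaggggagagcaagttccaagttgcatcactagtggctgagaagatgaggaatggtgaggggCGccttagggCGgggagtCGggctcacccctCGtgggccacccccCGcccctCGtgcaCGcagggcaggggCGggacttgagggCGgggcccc
Inhbb: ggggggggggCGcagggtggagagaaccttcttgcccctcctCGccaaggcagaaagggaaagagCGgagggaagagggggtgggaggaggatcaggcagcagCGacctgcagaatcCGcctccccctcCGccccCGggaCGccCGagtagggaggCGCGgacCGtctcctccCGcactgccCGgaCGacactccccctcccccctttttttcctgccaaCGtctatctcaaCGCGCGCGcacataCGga
Over all 27025 promoters of that table the same window held a median of 5 CG dinucleotides, with quartiles of 2 and 16. That of Tdg (chr10:82629588-82629837, plus strand) held 19 CG, and 19.4% of promoters held as many or more. That of Rfng (chr11:120784205-120784454, minus strand) held 34 CG, and 3.33% of promoters held as many or more. That of Nrbp1 (chr5:31240633-31240882, plus strand) held 17 CG, and 23.3% of promoters held as many or more. That of Xrn2 (chr2:147012749-147012998, plus strand) held 18 CG, and 21.4% of promoters held as many or more. That of Crabp1 (chr9:54764498-54764747, plus strand) held 12 CG, and 33.1% of promoters held as many or more. That of Inhbb (chr1:119422249-119422498, minus strand) held 21 CG, and 16% of promoters held as many or more. Among the genes shown, the lowered ones had between 17 and 34 and the raised Crabp1 and Inhbb 12 and 21. They were picked for display and set beside all promoters, not those of expressed genes, so they say nothing of called genes as a whole. Methylation of these windows was not analysed here.

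Rfng encodes a fringe glycosyltransferase that modifies Notch receptors. It stood at 12.7 and 13.1 RPKM in siC and 3.39 and 6.28 in siTdg, which left 26.6% and 48.1% of siC. Rfng changed by -1.38 (SE 0.12, adjusted p = 8.14e-08). The groups did not overlap at 48 h, and in the other libraries more was left: G1 kept 99.5% and 88.8%, G2M 105% and 106%, and 96 h 94.2% and 72.2%, so that the second 96 h pair was also below siC. Nrbp1, which encodes a pseudokinase, was even between replicates, at 47.5 and 47.04 RPKM in siC and 26.8 and 29.9 in siTdg, so that 56.4% and 63.5% were left. Nrbp1 changed by -0.73 (SE 0.072, adjusted p = 6.48e-07). Its siTdg libraries lay between 92.5% and 109% of siC in the phase libraries and at 96.1% and 94.8% at 96 h. The difference between 96 h and 48 h passed the test for Nrbp1 (0.66, SE 0.099, adjusted p = 0.0235).

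Xrn2, the nuclear exonuclease that helps to end transcription by RNA polymerase II, measured 69.03 and 72.8 RPKM in siC and 42.8 and 50.1 in siTdg. Xrn2 changed by -0.61 (SE 0.069, adjusted p = 4.70e-06). In the phase libraries 97.2% to 102% of its siC level was left, and at 96 h 92.3% in both pairs. Tnks, the poly-ADP-ribose polymerase tankyrase that marks axin for breakdown, was at 12.1 and 13.7 RPKM in siC and 6.95 and 7.101 in siTdg. Tnks changed by -0.83 (SE 0.091, adjusted p = 3.19e-06). Its groups did not overlap, and 98.3% and 65.04% were left in G1, 100.2% and 87.1% in G2M and 85.2% and 75.97% at 96 h. Mylip, a ubiquitin ligase, was at 3.03 and 4.56 RPKM in siC and 1.18 and 2.06 in siTdg. Mylip changed by -1.03 (SE 0.13, adjusted p = 1.52e-05). Mylip was below siC in every pair of every set, with 55.4% to 82.7% left in the phase and 96 h pairs. With the replicate block for the 48 h libraries alone, no gene differed between 48 h and a phase by limma (0 of 11747 genes, 0%, for G1 and likewise 0%, for G2M, with 392 and 343 at an unadjusted p under 0.05). With a block for every pair, 5 genes differed from G1 and 1 from G2M (1583 and 1139 unadjusted). Against 96 h Rfng (adjusted p = 0.0564), Xrn2 (0.0672), Tnks (0.169) and Mylip (0.143) also missed the threshold.

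**Figure D2:**
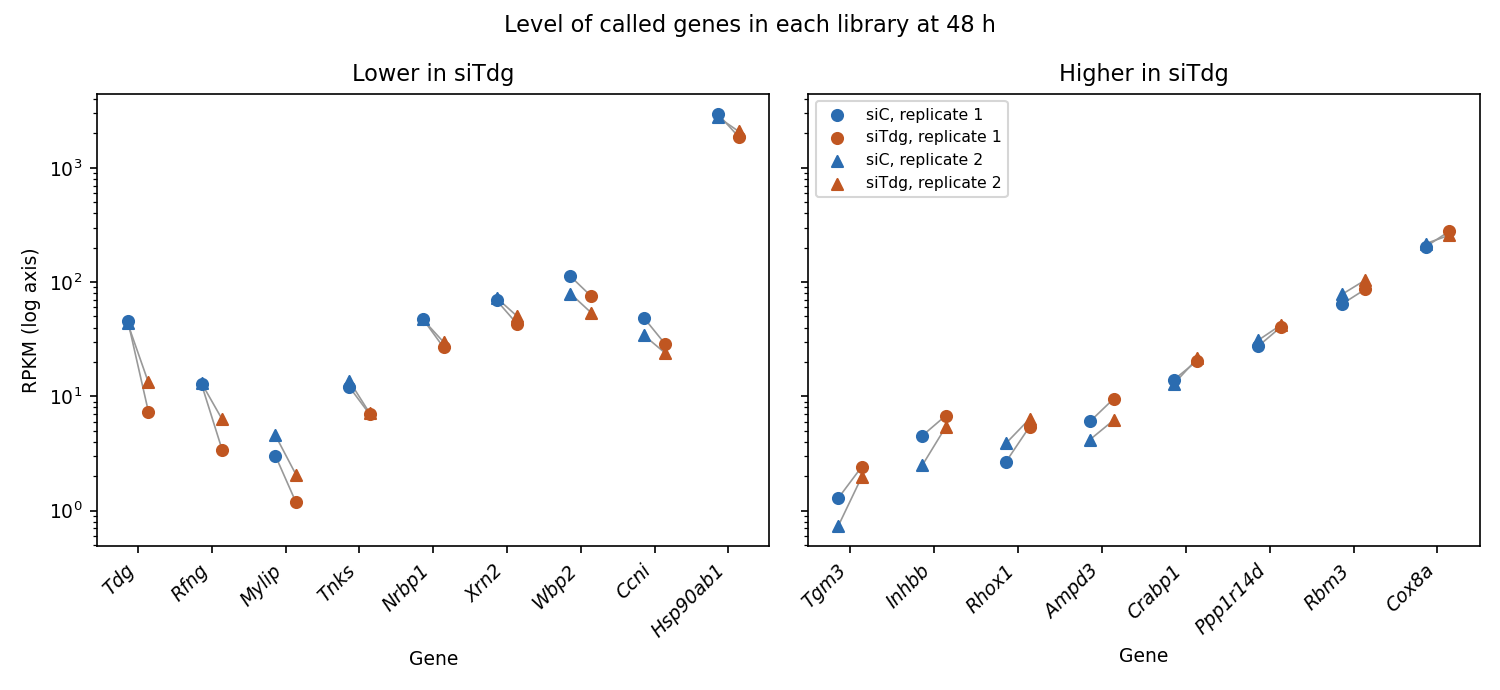
Level in RPKM (log axis) of 9 genes called lower and 8 called higher in siTdg at 48 h, with circles for replicate 1, triangles for replicate 2, blue for siC, orange for siTdg and a line joining each pair. In all 17 genes both pairs move the same way, and within each replicate Tdg has the steepest line, from 45.98 to 7.34 and from 43.4 to 13.2 RPKM.

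Among genes of high level, Hsp90ab1, a cytosolic form of the chaperone HSP90, was at 2957 and 2783 RPKM in siC and 1870.5 and 2088 in siTdg. Hsp90ab1 changed by -0.54 (SE 0.089, adjusted p = 0.000523). Both siTdg libraries were below both siC libraries, yet at 96 h 97.9% and 96.7% were left and in the phase libraries 101% to 116%. The other cytosolic form, Hsp90aa1, was at 2668 and 2859 RPKM in siC and 2813 and 2753 in siTdg and was not called. The HSP90 co-chaperone Ptges3 was at 267 and 260.4 RPKM in siC and 196 and 208 in siTdg (change -0.38, SE 0.067, adjusted p = 0.000862). In both HSP90-related genes that were called the groups did not overlap. Myh9, a non-muscle myosin heavy chain, was at 41.4 and 51.6 RPKM in siC and 28.9 and 36.7 in siTdg (change -0.50, SE 0.069, adjusted p = 8.85e-05). Tpx2, a spindle assembly factor, was at 65.6 and 54.7 RPKM in siC and 44.4 and 39.2 in siTdg (change -0.52, SE 0.068, adjusted p = 4.18e-05). Naa40, which acetylates the N-termini of histones, was at 51.3 and 50.2 RPKM in siC and 34.3 and 36.2 in siTdg (change -0.52, SE 0.070, adjusted p = 4.79e-05). In Myh9, Tpx2 and Naa40 both siTdg libraries again lay below both siC libraries, and in the phase libraries the 3 genes lay between -0.11 and 0.02. Ccni, cyclin I, was at 48.2 and 34.1 RPKM in siC and 28.9 and 24.01 in siTdg (change -0.61, SE 0.075, adjusted p = 1.34e-05). Wbp2, which binds WW domains, was at 112 and 79.3 RPKM in siC and 75.3 and 53.97 in siTdg (change -0.56, SE 0.066, adjusted p = 8.25e-06), with the lower siC library only just above the higher siTdg library.

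Raised genes were fewer and of lower level, with a median of 7.03 RPKM in siC against 19.6 for the lowered. Tgm3, a transglutaminase, was at 1.28 and 0.734 RPKM in siC and 2.42 and 1.97 in siTdg (change 0.86, SE 0.14, adjusted p = 0.000581). Inhbb, the beta B subunit of activin and inhibin, was at 4.51 and 2.48 RPKM in siC and 6.77 and 5.39 in siTdg (change 0.76, SE 0.12, adjusted p = 0.000248). Both siTdg libraries of Tgm3 and Inhbb were above both siC libraries. In the phase libraries both genes lay between -0.29 and -0.02, and at 96 h between 0.24 and 0.27. Crabp1, which binds retinoic acid in the cytosol, was close between replicates, at 13.98 and 12.9 RPKM in siC and 20.5 and 21.5 in siTdg (change 0.63, SE 0.081, adjusted p = 2.89e-05). Crabp1 was positive in G1 (0.41), G2M (0.35) and 96 h (0.44) as well. Calml4, a calmodulin-like gene, was at 2.65 and 3.37 RPKM in siC and 4.501 and 6.39 in siTdg (change 0.75, SE 0.11, adjusted p = 0.000202).

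Homeobox genes of the X-linked Rhox cluster were among the raised genes too. Rhox1 was at 2.68 and 3.89 RPKM in siC and 5.43 and 6.35 in siTdg (change 0.77, SE 0.11, adjusted p = 0.000175), with both siTdg libraries above both siC libraries. Rhox6 was at 2.57 and 6.25 RPKM in siC and 3.46 and 13.7 in siTdg (change 0.72, SE 0.13, adjusted p = 0.000803). Rhox9 was at 2.75 and 5.89 RPKM in siC and 3.75 and 11.3 in siTdg (change 0.63, SE 0.12, adjusted p = 0.0013). In Rhox6 and Rhox9 the groups overlapped and replicate 2 was the higher in both. Without siTdg replicate 2 and without the block their changes were -0.20 and -0.10. Rhox2b, one of a set of near-identical copies whose reads counting can split, was at 0.814 and 0.418 RPKM in siC and 1.66 and 1.13 in siTdg (change 0.77, SE 0.16, adjusted p = 0.00357). Rhox1 was at 0.41 in both G1 and G2M, and Rhox9 at 0.074 and -0.15 there. The Rhox genes named here were picked by their change, so they say nothing of the cluster as a whole.

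The 12 most raised and 12 most lowered genes by size held many short RNA genes. Among the raised these were Snord73a, Snord15b, Snora21, Mir3101, Mirlet7d and the host gene Snhg9, and among the lowered Mir3960, Mir1982, Mir3064 and Scarna10. Their levels rest on few reads. Snhg9, listed with a length of 183 bases, had a mean of 4.50 reads per library, at 0.308 and 0.193 RPKM in siC and 1.35 and 1.502 in siTdg, and Snord73a had 2.25 reads. Limma-voom, which gives such values less weight, called Snhg9 alone among these 10. Most small RNAs of this kind lie within host genes, so that reads of the 2 cannot be told apart here. Among genes under 200 bases, whose median is 5.50 reads, limma called 19.8% higher and 8.26% lower, and limma-voom 0.826% and 1.65%. In the longest genes the shares were 0.416% higher and 2.88% lower by limma and 1.14% and 5.99% by limma-voom. Median length was 1258 bases among raised genes, 2641 among lowered and 2853 among genes not called. Of the raised genes 79.8% code for protein and of the lowered 93.8%. The part that gene length has in the changes was not tested. Among these 24 genes with more reads, Mt3, a metallothionein, was at 1.15 and 1.18 RPKM in siC and 1.57 and 3.45 in siTdg, and Smim22 at 1.18 and 1.705 RPKM in siC and 3.54 and 2.23 in siTdg. Lst1 was at 1.56 and 1.78 RPKM in siC and 0.338 and 0.743 in siTdg, and Krtdap at 1.98 and 5.58 RPKM in siC and 0.772 and 3.16 in siTdg. Ptprtos, a noncoding antisense gene, was at 12.3 and 3.14 RPKM in siC and 5.47 and 1.31 in siTdg, with replicate 1 high in both groups. Mapk8ip2, a scaffold of JNK signalling, was at 3.22 and 1.998 RPKM in siC and 1.601 and 1.01 in siTdg. Of these 6 genes limma-voom called Lst1, Ptprtos and Mapk8ip2.

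**Figure D3:**
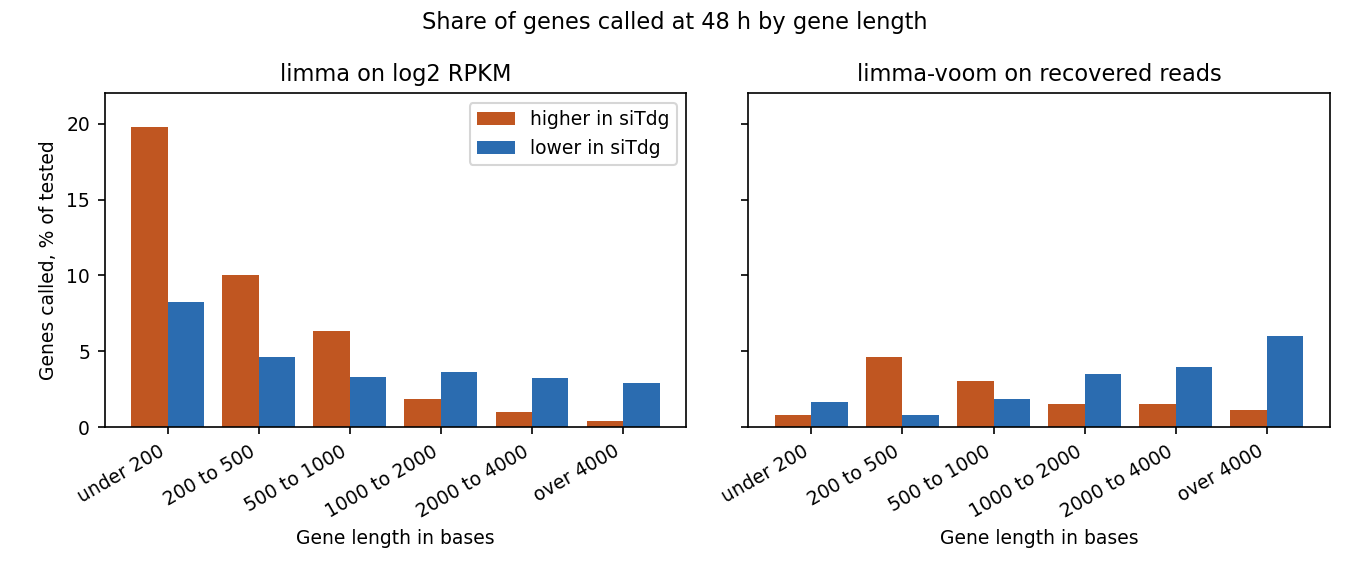
Share of tested genes called at 48 h (bars, % of the genes in each class) by gene length in bases, by limma on log2 RPKM (left) and limma-voom on recovered reads (right), orange for higher and blue for lower in siTdg. Raised calls fall from 19.8% to 0.416% with length by limma, while limma-voom calls 0.826% of the genes under 200 bases higher.

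Counts of called members in the lists below stand beside 4.94% of all genes, and a share near that is no result about a list. Of 21 genes of cytosine methylation and demethylation Tdg and Dnmt3l were the called 2 (9.52%), with 10 genes higher and 11 lower and a median of -0.03 (all genes -0.01). Dnmt3l, a cofactor of the de novo methyltransferases, was at 19.6 and 10.4 RPKM in siC and 12.4 and 9.01 in siTdg. Dnmt3l changed by -0.42 (SE 0.095, adjusted p = 0.008). The pairs were unequal, at -0.64 and -0.20, and without siC replicate 1 and without the block the change was 0.016. Dnmt3l was also at -0.22 in G1, -0.24 in G2M and -0.65 at 96 h, none of them called. Tet1, which makes the substrates of TDG, was at 29.1 and 24.2 RPKM in siC and 27.1 and 21.8 in siTdg, a change of -0.13 (95% interval -0.28 to 0.025). Tet2 was at 11.004 and 21.3 RPKM in siC and 13.9 and 21.3 in siTdg, with replicate 2 high in both groups (change 0.17, 95% interval -0.012 to 0.34). Tet3, at about 1 RPKM, changed by 0.015. Of 10 other DNA glycosylases 0 were called and 0 by limma-voom. Ung, which removes uracil, was at 54.8 and 52.96 RPKM in siC and 50.01 and 54.1 in siTdg, and Mbd4 and Smug1, which also act on mispaired T or U, were at -0.04 and -0.09. Of 18 genes that finish base excision repair 0 were called by either test, with a median of 0.04. Apex1, the endonuclease of the next step, was at 119 and 182 RPKM in siC and 109 and 191 in siTdg.

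In the p53 pathway the share of called genes was near that of all genes (4.94%), between 0% and 6.90% over 4 lists. Trp53, which encodes p53, was at 187 and 154 RPKM in siC and 183 and 148 in siTdg, a change of -0.04 (95% interval -0.18 to 0.093). Cdkn1a, the cell-cycle inhibitor p21 and a classical p53 target, was at 134 and 92.2 RPKM in siC and 129 and 87.7 in siTdg, a change of -0.06 (95% interval -0.19 to 0.074). In both genes replicate 1 was above replicate 2 and the groups overlapped. Mdm2, a p53 target that marks p53 for breakdown, was at 75.1 and 55.3 RPKM in siC and 67.5 and 63.6 in siTdg, with one pair at -0.15 and the other at 0.20. Ccng1, cyclin G1, was at 154 and 114 RPKM in siC and 161 and 137 in siTdg, a change of 0.16 (95% interval 0.023 to 0.30, adjusted p = 0.184). Of 21 genes of p53 and its regulators limma called 0 and limma-voom 1, lower. Of 29 targets in growth arrest and stress 2 were called, both lower. Ddit4, an inhibitor of mTOR signalling, was at 41.1 and 28.1 RPKM in siC and 25.98 and 22.2 in siTdg (change -0.49, SE 0.079, adjusted p = 0.000367), and Trp53inp2, an autophagy factor, was at 10.96 and 7.46 RPKM in siC and 7.69 and 4.78 in siTdg (change -0.54, SE 0.096, adjusted p = 0.00106). Of 12 apoptosis targets 0 were called by either test, and Bbc3, which encodes PUMA, was nearest at -0.29 (adjusted p = 0.0683). Of 17 repair and metabolism targets 1 was called, Rpl39l, which encodes a ribosomal protein, at 58.02 and 37.02 RPKM in siC and 41.2 and 28.8 in siTdg (change -0.42, SE 0.070, adjusted p = 0.000521). Rpl39l was at 0.33 in G1, 0.10 in G2M and -0.17 at 96 h. Medians of the 4 lists lay between -0.05 and -0.0063, beside -0.01 over all genes, and that of the repair and metabolism targets turned to 0.016 with median centring and 0.0046 with quantile normalization.

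**Figure D4:**
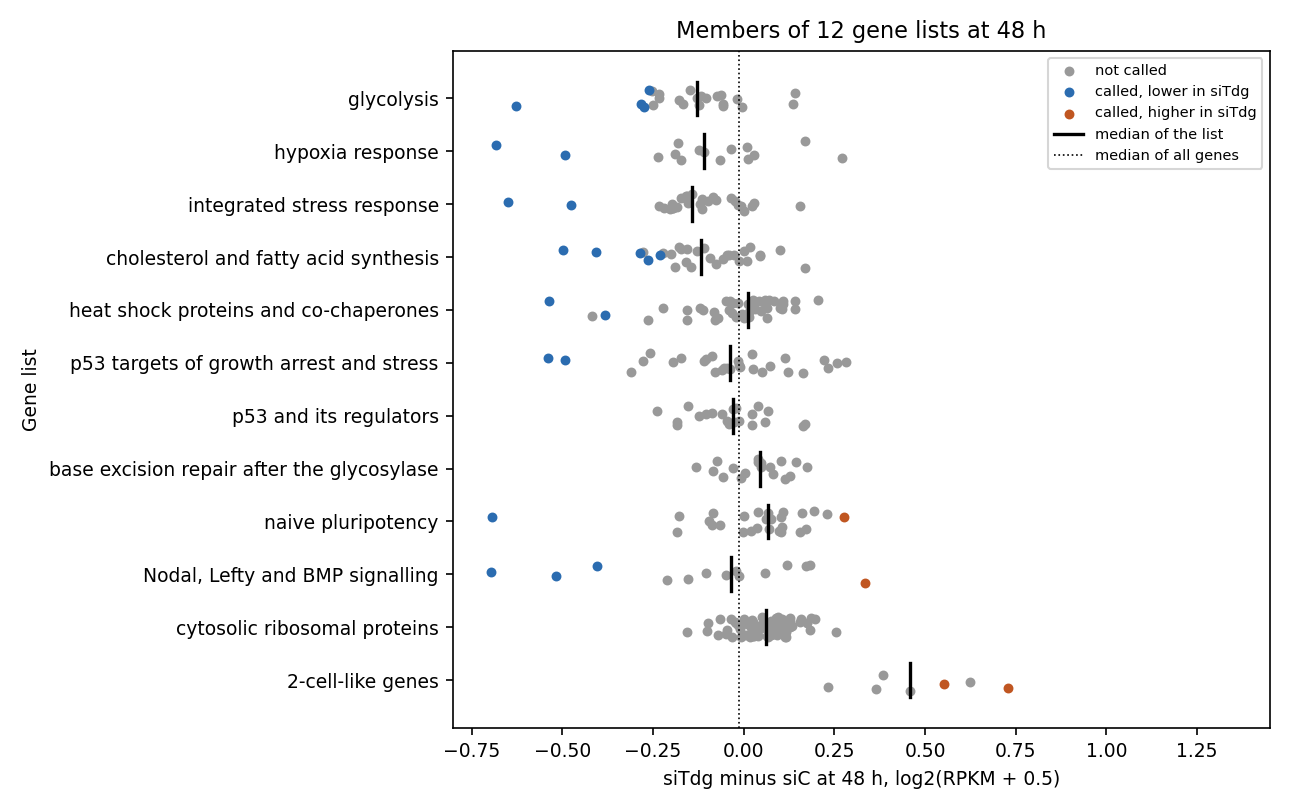
Change at 48 h (siTdg minus siC, log2(RPKM + 0.5)) of the tested members of 12 gene lists, 1 point per gene, blue where called lower, orange where called higher, with a bar at each list's median and a dotted line at the median of all genes. Glycolysis and the integrated stress response lie mostly left of 0, with medians of -0.13 and -0.14, and ribosomal protein genes mostly right, with a median of 0.06.

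In glycolysis, the breakdown of glucose to pyruvate and lactate, 21 of 23 members were below siC and 17 (73.9%) in both pairs, beside 53.9% and 34.1% of all genes, with a median of -0.13. Of them 4 (17.4%, against 4.94% of all genes) were called, all lower, and limma-voom called 7. Tpi1, triosephosphate isomerase, was at 181 and 219 RPKM in siC and 155 and 172 in siTdg (change -0.28, SE 0.067, adjusted p = 0.0121), with no overlap of the groups. Hk1, a hexokinase, was at 68.2 and 43.3 RPKM in siC and 59.4 and 34.5 in siTdg, with replicate 1 high in both groups (change -0.26, SE 0.069, adjusted p = 0.0262). Without the block Hk1 was at 0.065 without siC replicate 1 and 0.13 without siTdg replicate 2. Pfkl, a phosphofructokinase, changed by -0.27 and Slc16a3, a lactate exporter, by -0.63. Slc16a3 was at 0.49 in G1, 0.62 in G2M and -0.46 at 96 h. Gapdh was at 2641 and 2489.7 RPKM in siC and 2160.5 and 2143 in siTdg and missed the threshold by limma (adjusted p = 0.0898), while limma-voom called it lower (adjusted p = 0.00504). The authors' deposited table gives Gapdh an adjusted p of 0.0338. In other libraries 39.1% of the list was lower in G1, 65.2% in G2M and 60.9% at 96 h. In the hypoxia response 10 of 15 were below siC in both pairs, with a median of -0.11, and 2 were called (13.3%, against 4.94% of all genes). In other libraries 26.7% of this list was lower in G1, 33.3% in G2M and 73.3% at 96 h. The called genes were Ddit4, above, and Ndrg1, at 6.27 and 8.28 RPKM in siC and 3.82 and 4.83 in siTdg (change -0.68, SE 0.10, adjusted p = 0.000202), whose groups did not overlap. Ddit4 was at 0.33 in both G1 and G2M and at -0.18 at 96 h.

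In the integrated stress response, which ATF4 drives when translation initiation is limited, 25 of 29 members were below siC, 21 in both pairs, with a median of -0.14, beside 53.9% and 34.1% of all genes. The called 2 (6.90%, against 4.94%) were both lower. Ddit3, which encodes CHOP, was at 17.7 and 23.1 RPKM in siC and 13.8 and 14.99 in siTdg (change -0.48, SE 0.083, adjusted p = 0.000791), and the factor Atf3 was at 1.53 and 3.99 RPKM in siC and 0.855 and 2.23 in siTdg (change -0.65, SE 0.14, adjusted p = 0.00441). Atf4 itself was at -0.02 and Asns, asparagine synthetase, at -0.0072, neither of them called. In other libraries most of the list was above siC: 24.1% was lower in G1, 20.7% in G2M and 20.7% at 96 h, and Ddit3 was at 0.48, 0.40 and 0.24.

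In cholesterol and fatty acid synthesis 23 of 30 (76.7%, against 53.9% of all genes) were below siC, with a median of -0.12 that was 0.0023 at its highest with 1 library left out. Of the list 5 were called (16.7%, against 4.94%), all lower. Fasn, fatty acid synthase, was at 105 and 72.8 RPKM in siC and 80.7 and 47.2 in siTdg (change -0.50, SE 0.070, adjusted p = 9.74e-05). Scd1, a desaturase, was at 98.8 and 99.7 RPKM in siC and 75.9 and 73.4 in siTdg (change -0.41, SE 0.066, adjusted p = 0.000384), with no overlap of the groups. Scd2 and Dhcr7, of the last step to cholesterol, changed by -0.29 and -0.26. In the phase libraries 79.3% of 29 members were lower in G1 and 89.7% in G2M, and at 96 h 26.7% of 30. Fasn was at -0.27, -0.29 and -0.26 in those libraries. Among 43 heat shock proteins and co-chaperones 22 were above and 21 below siC, and Hsp90ab1 and Ptges3 were the called 2 (4.65%, near the 4.94% of all genes).

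Of 77 cytosolic ribosomal protein genes 62 (80.5%, against 46.1% of all genes) were above siC, with a median of 0.06, yet 0 were called by limma and 1 by limma-voom. Medians of the 2 pairs were unlike, at 0.0030 and 0.12. The medians of glycolysis, the integrated stress response and the ribosomal protein genes kept their sign under median centring and quantile normalization (0.08 and 0.03 for the last) and with any 1 library left out. Rps2, the highest in siC replicate 1, was at 3806 and 2910.2 RPKM in siC and 3116 and 2863 in siTdg. Small nucleolar RNA host genes were above siC for 16 of 18 (88.9%, against 46.1% of all genes), with Snhg9 and Snhg3 called (11.1%, against 4.94%). Their median was 0.068, with 0.017 and 0.17 in the pairs, and ran from -0.47 to 0.86 with 1 library left out and no block. Snhg3 was at 12.7 and 33.7 RPKM in siC and 16.8 and 38.4 in siTdg, with replicate 2 high in both groups, and was not called by limma-voom. Without the block Snhg3 was at -0.40 without siC replicate 1 and -0.29 without siTdg replicate 2.

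Of 12 core pluripotency genes 0 were called by either test. Nanog was at 289 and 372 RPKM in siC and 311 and 409 in siTdg, and Sox2 at 109.5 and 78.9 RPKM in siC and 112 and 81.5 in siTdg. Of 27 naive genes 19 were above siC, with a median of 0.07, and 2 were called (7.41%, against 4.94% of all genes). Gdf3, a TGF-beta ligand, rose, at 45.7 and 56.02 RPKM in siC and 55.3 and 68.1 in siTdg (change 0.28, SE 0.067, adjusted p = 0.0159). Dppa3, which protects methylation in the zygote, fell, at 10.9 and 5.01 RPKM in siC and 6.67 and 2.86 in siTdg (change -0.69, SE 0.10, adjusted p = 0.000187). Dppa3 was at 0.35 in G1, 0.23 in G2M and -0.51 at 96 h. Of 13 formative and primed genes 1 was called (7.69%), Otx2, at 6.25 and 5.98 RPKM in siC and 4.69 and 4.68 in siTdg (change -0.35, SE 0.10, adjusted p = 0.0491). Otx2 went the other way in G1 (0.30), G2M (0.43) and 96 h (0.21). Hesx1, a homeobox gene of the early forebrain that the lists do not hold, was at 3.17 and 6.75 RPKM in siC and 1.61 and 3.87 in siTdg (change -0.77, SE 0.12, adjusted p = 0.000212).

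In Nodal, Lefty and BMP signalling 4 of 14 were called (28.6%, against 4.94% of all genes). The Nodal inhibitor Lefty2 was lower, at 16.4 and 22.1 RPKM in siC and 11.9 and 14.5 in siTdg (change -0.52, SE 0.081, adjusted p = 0.000307), with no overlap of the groups. Lefty1 was lower as well, at 9.21 and 3.73 RPKM in siC and 6.62 and 2.797 in siTdg (change -0.40, SE 0.11, adjusted p = 0.0256), but its groups overlapped. Nodal itself was at -0.15 and was not called. Of the BMP targets Id2 was lower, at 1.86 and 0.973 RPKM in siC and 0.775 and 0.5401 in siTdg, and Id3 higher, at 10.8 and 18.8 RPKM in siC and 12.5 and 26.3 in siTdg. Without siC replicate 1 and without the block Lefty1 was at 0.20 and Id3 at -0.05, and without siTdg replicate 2 they were at 0.15 and -0.19. At 96 h Lefty1 and Lefty2 were at 0.39 and 0.36.

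Of 14 Wnt response genes 2 were called (14.3%, against 4.94% of all genes). Ccnd1, cyclin D1, was higher, at 26.5 and 31.5 RPKM in siC and 31.99 and 36.8 in siTdg (change 0.25, SE 0.071, adjusted p = 0.0448). Tcf7l1, a repressor of Wnt targets, was lower, at 25.7 and 22.8 RPKM in siC and 19.7 and 19.7 in siTdg (change -0.29, SE 0.077, adjusted p = 0.0262). Axin2, a direct target of the pathway, was at 0.04 and was not called. Ccnd1 was also the called 1 of 12 (8.33%) FGF/ERK response genes, of which 8 were above siC.

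Of 46 genes of G1/S and DNA replication 3 were called (6.52%, near the 4.94% of all genes). Ccne1, cyclin E1, was higher, at 42.2 and 55.1 RPKM in siC and 52.97 and 66.4 in siTdg (change 0.30, SE 0.068, adjusted p = 0.00933), and Rfc4, a clamp loader subunit, was higher, at 37.5 and 34.3 RPKM in siC and 44.5 and 45.99 in siTdg (change 0.33, SE 0.071, adjusted p = 0.00607). Rrm2, a ribonucleotide reductase subunit, was lower, at 186 and 171 RPKM in siC and 146 and 157 in siTdg (change -0.24, SE 0.069, adjusted p = 0.0432). Of 56 genes of G2/M and mitosis 24 were below siC and 2 were called (3.57%, against 4.94%), both lower. These were Tpx2, above, and the securin Pttg1, at 41.5 and 52.5 RPKM in siC and 30.7 and 43.998 in siTdg (change -0.34, SE 0.071, adjusted p = 0.00462). Medians of these lists were 0.05 and 0.0077. Of 30 genes of homologous recombination and the Fanconi pathway 0 were called by either test. Of 32 histone genes, whose copies share reads, Hist1h2bc (3.12% of the list) was called higher by limma alone, at 2.802 and 2.38 RPKM in siC and 3.501 and 4.26 in siTdg.

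Of 27 listed genes of the 2-cell-like state, which a few ESCs enter at a time, only 7 passed the filter on level and were tested. Dux and Zfp352 were among those left out. The 7 tested genes were all above siC, against 46.1% of all genes, with a median of 0.46, and 2 were called (28.6%, against 4.94% of all genes). Zscan4f was at 0.154 and 2.11 RPKM in siC and 0.308 and 5.297 in siTdg (change 0.73, SE 0.17, adjusted p = 0.0117). Zscan4d was at 0.0283 and 1.67 RPKM in siC and 0.2297 and 2.88 in siTdg (change 0.55, SE 0.16, adjusted p = 0.0461). Nearly all of the signal was thus in replicate 2 of both groups, and the groups overlapped. Zscan4 copies are nearly identical, so reads may be split between them and the 7 genes are not 7 measurements. All 7 were above siC in G1 and G2M too (medians 0.73 and 0.78) and all 7 below it at 96 h (-0.29). More cells in that state and more RNA per cell cannot be told apart in bulk samples. Without siC replicate 1 and without the block Zscan4f and Zscan4d were at -0.27 and -0.47, and without siTdg replicate 2 at -0.69 and -0.55. Of 22 germline genes, listed as genes that promoter methylation can silence, 12 were above siC and 10 below. These 22 of 26 listed genes were kept by the filter on level, so that they were expressed is no result. Tdrkh, Tex101 and Brdt fell below the filter, at 0.94 RPKM or less in every library. The highest of the list, Tuba3a, a tubulin, was at 169 and 69.8 RPKM in siC and 171 and 76.7 in siTdg. Hormad1, a meiotic chromosome protein, was the called 1 (4.55%, near the 4.94% of all genes), higher, at 13.8 and 13.01 RPKM in siC and 18.4 and 18.1 in siTdg (change 0.43, SE 0.080, adjusted p = 0.00165).

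Of 21 imprinted genes Igf2r and Slc38a4 were called (9.52%, against 4.94% of all genes), both lower. Igf2r, a receptor that clears the growth factor IGF2, was at 20.8 and 12.6 RPKM in siC and 16.8 and 9.28 in siTdg (change -0.36, SE 0.083, adjusted p = 0.0107). Slc38a4, an amino acid transporter, was at 25.1 and 54.5 RPKM in siC and 20.8 and 44.03 in siTdg (change -0.28, SE 0.071, adjusted p = 0.0184). In both genes the replicates lay farther apart than the siRNAs, and both were below siC in every other set, Igf2r between -0.30 and -0.18 and Slc38a4 between -0.36 and -0.11. Without the block Slc38a4 was at 0.27 without siC replicate 2 and 0.25 without siTdg replicate 1, and Igf2r at 0.057 without siTdg replicate 2. Of 9 endoderm and mesendoderm and 8 trophoblast genes 0 were called by either test. Of 12 neural genes listed only 3 passed the filter on level. All 3 were below siC (against 53.9% of all genes) and 2 were called (66.7%, against 4.94%). Tubb3, a tubulin, was at 94.5 and 51.9 RPKM in siC and 57.6 and 42.8 in siTdg (change -0.49, SE 0.079, adjusted p = 0.000384), and Nes, nestin, was at 4.16 and 2.68 RPKM in siC and 2.64 and 1.38 in siTdg (change -0.67, SE 0.13, adjusted p = 0.00191). The summed level of 4 neural markers was 96.3 and 52.8 RPKM in siC and 59.4 and 43.6 in siTdg, nearly all of it Tubb3, with Pax6 near 0. Of 6 fibroblast genes 2 were below siC and 1 was called lower (16.7%, against 4.94% of all genes). This was Fn1, fibronectin, at 224 and 149 RPKM in siC and 169.5 and 116 in siTdg (change -0.38, SE 0.066, adjusted p = 0.000742), while Col1a1, Col3a1 and Dcn were at 1.49 RPKM or less in all 4 libraries.

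The authors' deposited table of this comparison, made from the same 4 libraries and so no independent evidence, gives an adjusted p for 8393 genes. Of these the authors' deposited table puts 113 genes under 0.05 (1.35%), 10 higher and 103 lower in siTdg once the sign is turned, and 110 of them were also among the 604. The authors' deposited table gives the largest log2 change of the 10 higher genes to Inhbb (0.84) and the smallest to Hmgb2 (0.32), an abundant chromatin protein. Without siTdg replicate 2 and without the block the change of Hmgb2 was -0.036 on the log2(RPKM + 0.5) scale. The other 8 are Adam23, Ampd3, Cox8a, Fstl1, Ppp1r14d, Rbl1, Rbm3 and Txnip. In RPKM, Rbm3, a cold-inducible RNA-binding protein, was at 64.03 and 77.9 RPKM in siC and 86.5 and 104 in siTdg (change 0.42, SE 0.066, adjusted p = 0.000264). Ppp1r14d, a phosphatase inhibitor, was at 27.3 and 30.8 RPKM in siC and 40.8 and 42.4 in siTdg (change 0.51, SE 0.071, adjusted p = 8.85e-05). Rbl1, the pocket protein p107, was at 5.62 and 6.42 RPKM in siC and 8.54 and 8.22 in siTdg (change 0.45, SE 0.099, adjusted p = 0.00714). Both siTdg libraries of these 3 genes lay above both siC libraries. The other 5 were called here as well, with changes between 0.35 and 0.56. The smallest adjusted p among the lower genes of the authors' deposited table is that of Tnks (2.36e-11), before Nrbp1 and Xrn2.

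The genes called at 48 h were then read in libraries that share no sample with them. Of 203 raised genes 190 were measured in the phase libraries, and 145 (76.3%) were positive in G1 and 142 (74.7%) in G2M, while over all genes 49.7% and 53.9% were positive. At 96 h 160 of 203 (78.8%) were positive, against 51.2% of all. Of 394 lowered genes 241 (61.2%) were negative in G1 and 223 (56.6%) in G2M, against 50.3% and 46.1% of all, and at 96 h 308 of 401 (76.8%) against 48.8%. The raised genes thus kept their sign more often than all genes in each set, as did the lowered genes, by a smaller margin in the phase libraries. Changes were smaller there: medians of the raised genes were 0.14, 0.092 and 0.14 in G1, G2M and 96 h, and of the lowered -0.04, -0.02 and -0.10. Genes picked by their 48 h change tend to show smaller changes in any other libraries, so the smaller size is no result by itself. The same holds for the single genes above. G1 and G2M each called Tdg alone (0.00802% of 12462 genes each, with 428 and 257 at an unadjusted p under 0.05) without a replicate block. With the block 3 genes were called in G1 and 14 in G2M (2259 and 971 unadjusted), and same-numbered libraries deviated together there too (r = 0.705 and 0.592). At 96 h 13 genes (0.106%) were called, and for 14 (0.115%) the change at 96 h differed from that at 48 h. Of these 14, Tdg, Nrbp1, Ccni, Lst1, Hesx1, Lefty2, Scarna10 and Cks1b, a cyclin-dependent kinase subunit, were called lower at 48 h. Snhg9, Mir3101, Nt5e, which makes adenosine from AMP, and the small nucleolar RNAs Snord35b and Snord52 were called higher there, and Snord1b was not called.

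**Figure D5:**
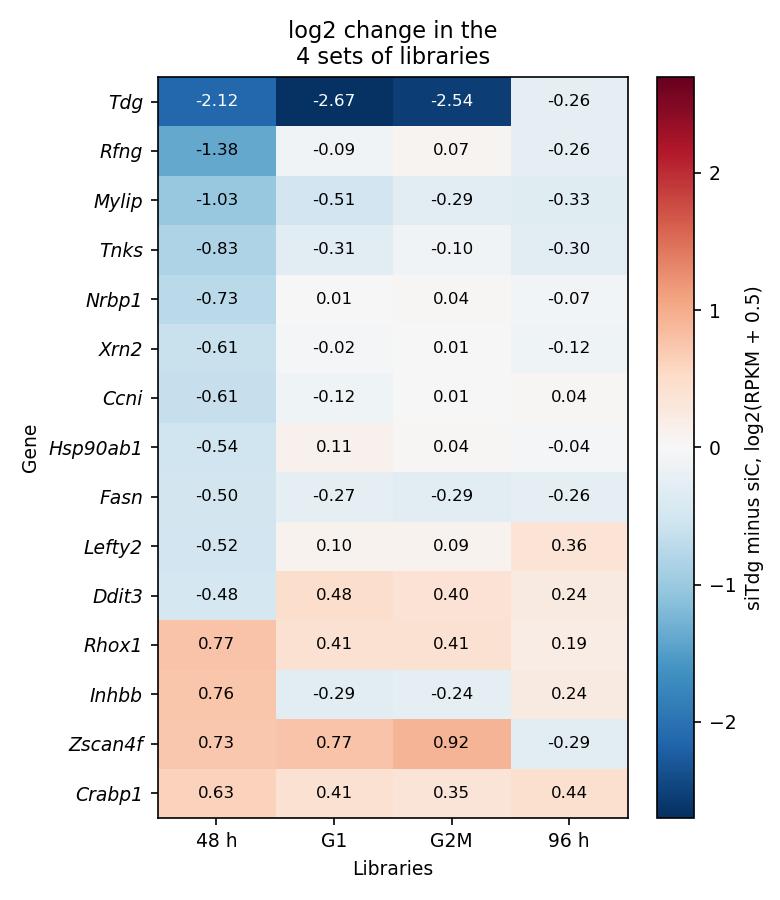
Change in siTdg against siC (log2(RPKM + 0.5), colour and printed value) of 15 genes called at 48 h, in the 48 h, G1, G2M and 96 h libraries. Tdg is at -2.12, -2.67 and -2.54 in the first 3 and at -0.26 at 96 h, while Rfng, at -1.38 at 48 h, lies between -0.26 and 0.07 in the others.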

How the data were processed

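The 4 RNA libraries were compared gene by gene. The authors deposited RPKM per gene and library, and a second table of the authors' mean normalised counts (a signal value over the libraries), log2 fold changes, standard errors, p-values and adjusted p-values, with the column names of DESeq2 per the file headers. The submitters' processing notes name TopHat, DESeq2 and the build mm9, while no source used here gives the gene annotation or the counting tool. From RPKM and the mean counts whole reads were recovered (100% of values within 0.01 reads), so that a count-based test could be run as an alternative. RPKM + 0.5 was put on a log2 scale and genes averaging 0.5 RPKM or more were fitted with limma 3.58.1 in R 4.3.3, with eBayes and a trend, the replicate number as a block, and Benjamini-Hochberg adjustment over all genes (called at an adjusted p under 0.05, two-sided). Scripts were tested on simulated data.

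The labels' replicate numbers gave the pairing, and same-numbered libraries deviated together (r = 0.852 at 48 h). Libraries of G1 and G2M cells were fitted in 1 model of 8 without the block and those of 48 h and 96 h in 1 model of 8 with it. In the phases siRNA goes with the deposited RPKM set, so effects of the siRNA and of the set cannot be told apart. Over all genes the median phase change was -0.0016 in G1 and 0.010 in G2M. The difference of the 48 h libraries from the phase libraries was fitted over 12 libraries, chosen after seeing the data. No pair of libraries was within sampling noise of another by chi-square of reads. Members and 31 gene lists were chosen with earlier results of these data known, so counts over lists are descriptions. Named genes are Tdg, Trp53, Cdkn1a, Mdm2, Ccng1, Tet1, Tet2, Tet3 and Dnmt3l, the 12 most raised and 12 most lowered called genes that reach 1 RPKM in one group, have the same sign in both pairs and carry no clone or predicted-gene symbol, those higher and the 12 first lower ones in the authors' table, called list members and the highest members of lists. Genes with at least 100 reads called by both tests were added after seeing values. Alternatives were other pseudocounts, filters, scalings, priors, models and libraries left out. Promoter sequences are RefSeq's (GRCm38.p6). A further 4 RPKM columns that match no sample were not used. Binding peaks, modified DNA, embryoid bodies and 0 h cells were not analysed here. A few genes that the rule for names selects are not reported here.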

Additional observations from a re-analysis of the deposited data

Results flagged for a closer look

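For 9 genes named above the change at 96 h differed from that at 48 h by limma's test of the difference in 1 model of the 8 libraries with the replicate block (adjusted p under 0.05), which is what set them apart. Most genes were named for their 48 h change, and the difference holds those same 48 h values, so the choice favours a difference. The same holds for differences from the phase libraries below. Tdg differed by 1.86 (SE 0.20, adjusted p = 0.00177), from -2.12 at 48 h to -0.26 at 96 h. Nrbp1 differed by 0.66 (adjusted p = 0.0235) and Ccni by 0.65 (adjusted p = 0.0369), both near 0 at 96 h (-0.07 and 0.04). Lefty2 differed by 0.88 (adjusted p = 0.00957) and Hesx1 by 1.15 (adjusted p = 0.0383), both lower at 48 h and at 0.36 and 0.38 at 96 h. Lst1 differed by 1.29 (adjusted p = 0.0395) on a mean of 14.2 reads. The short genes Scarna10 (2.92, adjusted p = 6.68e-06, 3.25 reads), Mir3101 (-2.19, adjusted p = 0.0315, 6 reads) and Snhg9 (-1.47, adjusted p = 0.0162, 4.50 reads) rest on few reads. Without the replicate block 0 genes differed between the times (17 at an unadjusted p under 0.05).

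Between 48 h and the phase libraries, 3 of the genes considered differed when every pair of numbers was a block, a model chosen after seeing the data, and none of them with a block for 48 h alone. Dppa3 was lower at 48 h than in G1 by a difference of -1.05 (adjusted p = 0.0415, and 0.996 with the block for 48 h alone). Lrrn2, a leucine-rich repeat gene, was higher at 48 h than in G1 by 1.31 (adjusted p = 0.0415, and 0.423). Mir3064 differed from G2M by -2.42 (adjusted p = 0.0104, and 1.00), on a mean of 9.75 reads.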

How the results depend on the processing

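Tdg kept its direction in all alternatives run, though filters and priors cannot change it, while the count of 604 depends on the model. It was 337 with a pseudocount of 0.1 RPKM, 392 with 1, 344 with quantile normalization, 260 with median centring and 267 in a model of 8 libraries with the block, and within 1.5 times of the reported count for a filter of 1 RPKM (780), a robust prior (565), limma-voom (707) and a filter of 10 reads chosen after seeing the data (859). Without a trend in the prior it was 18, and with no filter on level 0 (2142 at an unadjusted p under 0.05), where genes near 0 enter the prior. Without the replicate block 0 genes were called, in the 4 libraries (88 unadjusted), in 8 (55), with limma-voom (71) and with any 1 of the 4 libraries left out (58 to 96). Leaving out a pair in the 8-library model left 168 genes without replicate 1 and 303 without replicate 2, of which 116 and 197 were among the 604. With a pair left out, the spread of the 48 h comparison comes from 96 h alone.

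Tdg was at -2.12 but not called without the block (4 or 8 libraries), with no filter and with the robust prior, and at -2.18 with limma-voom without it. With 1 library left out and no block it was -2.08, -2.16, -1.72 and -2.53. At 96 h the counts of called genes and of differences from 48 h, 13 and 14, were 5 and 3 with quantile normalization and 0 and 0 without the block. Differences from G1 and G2M were 5 and 1 with a block for every phase, and 0 and 0 with a block for 48 h. The number of genes keeping their 48 h sign in the phase libraries depended on which libraries were used. With 1 library left out it was 328 to 413 of 584 in G1 and 311 to 383 in G2M, against 386 and 365. The lowest shares were 56.2% in G1 and 53.3% in G2M, each without siC replicate 2 of that phase, against 66.1% and 62.5% with all libraries.

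Among the 101 other genes followed, none changed direction under the pseudocounts, the scalings and limma-voom with all 4 libraries. Other filters, priors and limma models with all 4 libraries leave each gene's log2 change as it was, so direction could not turn there. With a library left out some did, the cause being untested beyond the broken pairing. Without siC replicate 1 (and without the block) these were Trp53 at 0.098, Cdkn1a at 0.21, Tet1 at 0.0040, Tet2 at -0.29, Dnmt3l at 0.016, Hk1 at 0.065, Lefty1 at 0.20, Id3 at -0.049, Snhg3 at -0.40, Zscan4d at -0.47, Zscan4f at -0.27 and Cidea at 0.11. Without siC replicate 2 these were Mdm2 at -0.20, Ccng1 at -0.053, Tet3 at -0.030 and Slc38a4 at 0.27. Without siTdg replicate 1 these were Mdm2 at -0.018 and Slc38a4 at 0.25. Without siTdg replicate 2 these were Trp53 at 0.11, Cdkn1a at 0.22, Tet1 at 0.029, Tet2 at -0.13, Hmgb2 at -0.036, Hk1 at 0.13, Lefty1 at 0.15, Id3 at -0.19, Snhg3 at -0.29, Zscan4d at -0.55, Zscan4f at -0.69, Igf2r at 0.057, Rhox6 at -0.20, Rhox9 at -0.10 and Cidea at 0.30. Without replicate 2 in the 8-library model with the block these were Mdm2 at -0.15 and Tet3 at -0.029.

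Of the medians of the 31 lists, median centring moved 10 beyond the spread of the pairs (1 changed sign), quantile normalization 8 (3), a filter of 1 RPKM 4 (2) and limma-voom 2 (0). With 1 library left out and no block 20 to 23 moved and 7 to 13 changed sign, and with a pair left out in the 8-library model 15 and 8 moved and 8 and 3 changed sign.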

Other observations

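Further genes with at least 100 reads, called by limma and by limma-voom, were of several kinds. F3, tissue factor, which starts blood clotting, was at 4.49 and 3.62 RPKM in siC and 2.29 and 2.31 in siTdg (change -0.70, SE 0.12, adjusted p = 0.000969), with no overlap of the groups. Serpinb9b, a serine protease inhibitor, was at 8.32 and 11.5 RPKM in siC and 4.91 and 6.27 in siTdg (change -0.76, SE 0.096, adjusted p = 2.09e-05), again with no overlap. Ap3b2, a subunit of the AP-3 vesicle adaptor, was at 5.595 and 5.43 RPKM in siC and 3.495 and 2.92 in siTdg (change -0.70, SE 0.11, adjusted p = 0.000367). In Cidea, a lipid droplet gene, replicate 1 was high in both groups, at 8.54 and 2.31 RPKM in siC and 5.71 and 0.974 in siTdg (change -0.74, SE 0.12, adjusted p = 0.000547), and the groups overlapped. Without the block Cidea was at 0.11 without siC replicate 1 and 0.30 without siTdg replicate 2. Among the raised genes, Phf19, which ties the Polycomb complex PRC2 to chromatin, was at 1.001 and 0.623 RPKM in siC and 1.71 and 1.39 in siTdg (change 0.65, SE 0.15, adjusted p = 0.0108). The noncoding gene Halr1 of the Hoxa region was at 8.51 and 9.41 RPKM in siC and 10.5 and 18.04 in siTdg (change 0.60, SE 0.11, adjusted p = 0.00098). In both of these the groups did not overlap. In the phase libraries F3, Serpinb9b and Ap3b2 lay between -0.13 and 0.19, and Phf19 and Halr1 between 0.08 and 0.14.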
